A study of Mus musculus with 7 samples.

Results

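OT-I cells dividing after priming with antigen (OCS/LPS, 2 arrays) were compared with OT-I cells dividing in lymphopenic hosts (Rag, 1 array), which are 3 of the 7 arrays of the study. OT-I cells are CD8 T cells with a transgenic receptor for a peptide of chicken ovalbumin. In both groups the labels give C57BL/6 as the strain, and CD44lo Ly5.1 OT-I cells labelled with CFSE, a dye diluted at each division, had been injected into host mice. OCS/LPS hosts received splenocytes coated with ovalbumin together with lipopolysaccharide, and their cells were taken 60 h after transfer. Rag hosts were Rag-/- mice, and their cells were taken after 5 days. Each of these arrays held CD8+ Ly5.1+ cells sorted after at least 2 divisions from spleens pooled from 10 mice. The other 4 arrays entered for the spread between arrays and as levels set beside the comparison: 2 of OT-I cells that divided for 60 h in lymph nodes of RIP-OVAhi hosts, which make ovalbumin themselves (20 mice pooled), and 2 of undivided naive OT-I cells from spleens of B6 hosts after 60 h (10 mice pooled). The comparison covered 18194 genes named by probe sets with 1 gene symbol, of which 8371 were tested because they reached a log2 level of 5 on at least 1 of the 7 arrays. Levels under log2 5 are called near background.

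A naive CD8 T cell whose receptor meets its antigen together with inflammatory signals switches on the factors of receptor signalling, divides quickly and turns into an effector cell. In a host without lymphocytes of its own, transferred T cells divide without foreign antigen, more slowly, in response to weak self-ligands and to interleukin-7 and interleukin-15 that no other lymphocytes consume. Rag-/- mice cannot rearrange antigen receptor genes and so have no mature T or B cells, but they keep macrophages, dendritic cells, NK cells and red cell precursors. Antigen, lipopolysaccharide, host and time after transfer all coincide with the group here, so their shares in any difference cannot be told apart. A lower level in sorted bulk cells can mean fewer cells with a transcript or less of it per cell, and these cannot be told apart either.

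The T cell identity of both groups was as labelled. Cd8b1, the CD8 beta chain, stood at 12.31 and 12.07 in OCS/LPS cells, against 12.20 in Rag cells. Cd3e, a chain of the receptor complex, stood at 10.05 and 9.94 in OCS/LPS cells, against 10.16 in Rag cells. Cd4 and Foxp3, which mark helper and regulatory T cells, were near background on all 7 arrays. The 2 OCS/LPS arrays correlated at r = 0.991 across tested genes, with 42 genes more than 2-fold apart, and each correlated with the Rag array at 0.926 and 0.916. Genes are not independent replicates, and these values only describe the arrays. The arrays numbered 1 and 2 differed in sex-linked genes. Xist, expressed from the inactive X chromosome, stood at 2.73 and 12.76 in OCS/LPS cells, against 2.67 in Rag cells. Kdm5d, a Y-linked gene, stood at 8.80 and 2.63 in OCS/LPS cells, against 8.63 in Rag cells, so on both genes the Rag array lay with the arrays numbered 1. For the Gapdh controls the 3' signal exceeded the 5' signal, a measure of RNA integrity and amplification, by 1.85 and 1.89 in OCS/LPS cells, against 2.21 log2 units in Rag cells.

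Transcripts of host cells differed between the groups and are given before the results. Of 26 macrophage and monocyte genes named on the array, 10 reached log2 5 in Rag cells and 3 and 4 did so on the OCS/LPS arrays. Csf1r, the receptor for macrophage growth factor, was 2.50 on both OCS/LPS arrays, against 8.51 in Rag cells, and Mpeg1, a perforin-like gene of macrophages, was 2.66 and 3.13 in OCS/LPS cells, against 7.58 in Rag cells. Ctss apart, which is high on every array (12.81 to 13.68), the summed linear level of this list was 412 and 568 in OCS/LPS cells, against 1740 in Rag cells. Of 16 red cell and platelet genes on the array, 11 were near background on all 7 arrays. In Rag cells 4 reached log2 5, against 3 on each OCS/LPS array. The platelet gene Ppbp was higher in OCS/LPS cells by 1.05 log2 units, but near background on the OCS/LPS and Rag arrays. The red cell gene Slc4a1, which encodes the anion exchanger band 3, was 5.48 and 5.73 in OCS/LPS cells, against 8.28 in Rag cells. Transcripts of antibody-making cells ran the other way. Jchain, which joins secreted immunoglobulins, was 8.01 and 8.45 in OCS/LPS cells, against 1.65 in Rag cells, and was also high in naive cells (7.07 and 6.93). The summed level of the immunoglobulin and plasma cell list without Ighm was 508 and 927 in OCS/LPS cells, against 44.9 in Rag cells. Of 10 B cell genes on the array, 4 and 5 reached log2 5 in OCS/LPS cells, against 2 in Rag cells. Bank1 of that list was tested only because the OCS/LPS arrays reached log2 5, so the direction of its difference was fixed by that filter. Cd79a, a chain of the B cell receptor complex, was near background on all 7 arrays, while its partner Cd79b was 8.18 and 8.42 in OCS/LPS cells, against 6.84 in Rag cells (1.47, SE 0.49, adjusted p = 0.0952). The part of such host transcripts in the results below was not tested.

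Primed cells and cells dividing in lymphopenic hosts differed in many genes. Limma called 916 genes higher and 572 lower in OCS/LPS cells, which is 10.9% and 6.83% of the 8371 tested, at a Benjamini-Hochberg adjusted p under 0.05. Of these, 624 and 325 differed by at least 2-fold (7.45% and 3.88% of tested genes). The difference over all tested genes had a median of 0.05 on the log2 scale. The single Rag array was assumed to vary like the groups with 2 arrays. Fitted on the 3 arrays of the comparison alone, where 1 residual degree of freedom is left, limma called 0 genes, while 3353 had an unadjusted p under 0.05, so the adjusted calls rest on the spread borrowed from the other groups. The total of 1488 calls became 522 and 413 without OCS/LPS replicate 1 or 2, 604 without either RIP-OVAhi array and 2815 without either naive array. A set of 362 genes, 264 higher and 98 lower, was called whichever of these 6 arrays was left out. Such genes are called stable below, and for other named genes the arrays whose omission ended the call are given. The single Rag array was never left out, so a stable call still rests on its 1 reading. Rag levels were near background for 190 of the 916 higher genes, and both OCS/LPS levels for 73 of the 572 lower ones. The size of a difference against such a level depends on the background estimate.

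**Figure D1:**
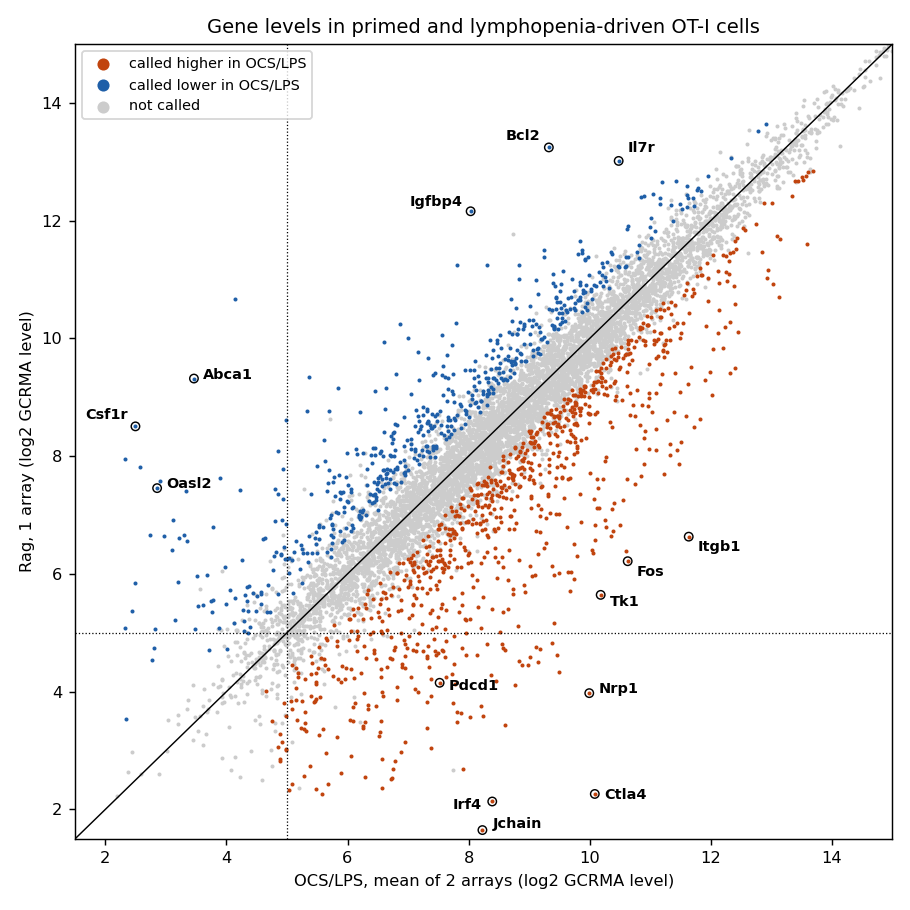
Level of each of the 8371 tested genes in OCS/LPS cells (x axis, mean of 2 arrays, log2 GCRMA) and in Rag cells (y axis, 1 array, log2 GCRMA). Red points are the 916 genes called higher in OCS/LPS cells, blue points the 572 called lower, dotted lines mark log2 5, and circles mark named genes such as Ctla4 (far right of the diagonal) and Bcl2 (above it).

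Genes that antigen receptor signalling switches on were often higher after priming. Of 17 tested response factors, 8 rose and 1 fell, against the 10.9% and 6.83% over all genes, and the median difference was 1.01. Their median level was 8.11 and 8.33 in OCS/LPS cells, against 6.57 in Rag cells. In naive cells it was 7.45 and 7.28, so the Rag array lay below the naive arrays. The number of rises was 6 and 4 without OCS/LPS replicate 1 or 2, 6 without either RIP-OVAhi array and 9 without either naive array. Irf4, a transcription factor whose level follows the strength of receptor signalling, stood at 8.32 and 8.46 in OCS/LPS cells, against 2.13 in Rag cells. It was near background in Rag cells, as it was in naive cells (3.09 and 2.28), and far above it on both OCS/LPS and both RIP-OVAhi arrays (8.57 and 8.41 on the latter). Its difference of 6.26 (SE 0.33, adjusted p = 0.000387) was the third largest rise of all called genes.

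Nr4a3 and Nr4a2 encode orphan nuclear receptors induced within hours of receptor ligation. Nr4a3 stood at 7.68 and 7.56 in OCS/LPS cells, against 5.39 in Rag cells (difference 2.23, SE 0.26, adjusted p = 0.00444). Nr4a2 stood at 4.94 and 4.82 in OCS/LPS cells, against 2.82 in Rag cells (2.06, SE 0.21, adjusted p = 0.00292), which is near background on all 3 arrays, and its other measured probe set gave a difference of only 0.20. For both genes the Rag array was the lowest of all 7 and the RIP-OVAhi arrays were the highest (9.62 and 9.23 for Nr4a3, 7.55 and 7.98 for Nr4a2). Egr2, a further receptor-induced factor, was 9.08 on both OCS/LPS arrays, against 7.55 in Rag cells and 9.15 on both naive arrays. Its difference of 1.54 (SE 0.19, adjusted p = 0.00572) was no longer called without OCS/LPS replicate 2 (adjusted p = 0.0518). Fos, an AP-1 subunit that rises with acute stimulation, stood at 11.03 and 10.23 in OCS/LPS cells, against 6.21 in Rag cells. Here the primed cells lay just under the naive ones (11.48 and 11.19), while the Rag array stood apart from all others, with a difference of 4.41 (SE 0.46, adjusted p = 0.00336). Ikzf2 encodes the Ikaros family factor Helios. It was 9.86 and 10.32 in OCS/LPS cells, against 6.57 in Rag cells, 8.59 and 8.52 in naive and 12.09 and 12.28 in RIP-OVAhi cells. Its difference of 3.52 (SE 0.23, adjusted p = 0.000621) and those of Irf4, Nr4a2, Nr4a3 and Fos were stable. Batf, an AP-1 partner of Irf4, was 9.34 and 9.44 in OCS/LPS cells, against 8.06 in Rag cells, and its call (1.33, SE 0.27, adjusted p = 0.0268) was lost without any 1 of the OCS/LPS or RIP-OVAhi arrays (up to 0.135). The member that fell was Cd69, an early activation marker that was highest in naive cells. It stood at 9.83 and 9.66 in OCS/LPS cells, against 10.80 in Rag cells (-1.06, SE 0.18, adjusted p = 0.015), and its call was lost without any 1 of the OCS/LPS or RIP-OVAhi arrays (up to 0.0929).

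Of 8 tested inhibitory receptor genes 5 were higher after priming and 1 was lower, against 10.9% and 6.83% over all genes. Their median difference was 1.74. The rises numbered 3 without either OCS/LPS array, 4 without either RIP-OVAhi array and 6 without either naive array. Ctla4, which competes with Cd28 for its ligands and restrains T cells, stood at 10.22 and 9.95 in OCS/LPS cells, against 2.26 in Rag cells. The Rag level was that of naive cells (2.64 and 2.29), and the difference of 7.82 (SE 0.25, adjusted p = 0.000154) was the largest rise of all called genes. Pdcd1, which encodes PD-1, stood at 7.57 and 7.47 in OCS/LPS cells, against 4.15 in Rag cells (3.37, SE 0.18, adjusted p = 0.000412). Cd200, whose product inhibits cells that bear its receptor, stood at 6.58 and 6.93 in OCS/LPS cells, against 2.69 in Rag cells (4.07, SE 0.31, adjusted p = 0.00113). These 3 calls were stable, and each Rag value was near background. RIP-OVAhi cells also held these transcripts, at 10.33 and 9.94 for Ctla4, 8.49 and 8.38 for Pdcd1 and 8.80 and 8.76 for Cd200. Lag3, a receptor that binds MHC class II, was 5.09 and 4.87 in OCS/LPS cells, against 3.01 in Rag cells, and its call (1.97, SE 0.29, adjusted p = 0.0104) was lost without OCS/LPS replicate 1 or 2 (up to 0.0714). Cd200r1, a receptor for Cd200, was near background on all 3 arrays (0.65, SE 0.15, adjusted p = 0.0362), and its call was lost without any 1 of the OCS/LPS or RIP-OVAhi arrays (up to 0.149) and with the replicate block (adjusted p = 0.0822).

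Nt5e, which encodes the ectoenzyme CD73 that makes adenosine, was the member that fell. It stood at 3.98 and 3.56 in OCS/LPS cells, against 6.80 in Rag cells (-3.03, SE 0.22, adjusted p = 0.000897, stable). Rag cells were thus above both naive arrays (5.07 and 5.14) and the primed cells below them.

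Costimulatory receptors and ligands were higher in 6 of 15 cases and lower in 0 (2 at an unadjusted p under 0.05). Over all genes the shares were 10.9% and 6.83%. The median difference was 0.65, and the rises were 2 without any 1 of the OCS/LPS or RIP-OVAhi arrays and 7 without either naive array. Icos, a costimulatory receptor induced by activation, stood at 10.84 and 10.88 in OCS/LPS cells, against 8.86 in Rag cells (2.0, SE 0.17, adjusted p = 0.00173, stable). Tnfsf11, the ligand of the receptor RANK, stood at 5.16 and 6.19 in OCS/LPS cells, against 2.42 in Rag cells (3.25, SE 0.40, adjusted p = 0.00558, stable), with 1 OCS/LPS array close to background. Its RIP-OVAhi levels were 9.78 and 9.60. Cd28, Cd86, Slamf6 and Tnfsf14 rose by 0.66 to 1.30 on the log2 scale, and each call was lost without any 1 of the OCS/LPS or RIP-OVAhi arrays (up to 0.19). With the replicate block the adjusted p was 0.0859 for Cd28, 0.0724 for Slamf6 and 0.063 for Tnfsf14.

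Further surface molecules and factors showed rises of like or larger size. Nrp1, which encodes the receptor neuropilin-1, stood at 10.00 and 9.99 in OCS/LPS cells, against 3.97 in Rag cells (6.02, SE 0.31, adjusted p = 0.000387). Itgb1, the beta-1 integrin chain of receptors for matrix and Vcam1, stood at 11.49 and 11.78 in OCS/LPS cells, against 6.63 in Rag cells (5.00, SE 0.24, adjusted p = 0.000303). Zbtb32, a transcriptional repressor of activated lymphocytes, stood at 9.66 and 9.33 in OCS/LPS cells, against 4.33 in Rag cells (5.17, SE 0.57, adjusted p = 0.00384). Cxcr5, a chemokine receptor that guides cells to B cell follicles, stood at 8.69 and 8.44 in OCS/LPS cells, against 4.73 in Rag cells (3.83, SE 0.23, adjusted p = 0.000501). All 4 calls were stable, and in each the Rag value lay within 1.5 log2 units of both naive arrays. RIP-OVAhi cells were high as well, at 10.48 and 10.02 for Nrp1 and 11.54 and 11.80 for Itgb1. Their levels were 9.44 and 9.03 for Zbtb32 and 9.29 and 9.20 for Cxcr5.

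**Figure D2:**
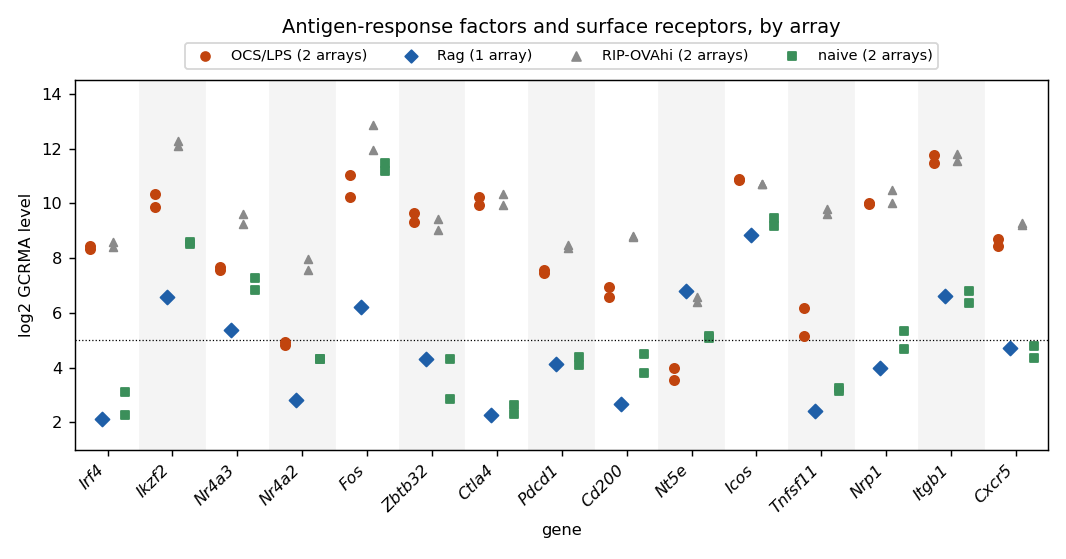
Level on each array (y axis, log2 GCRMA) of 15 antigen-response factors and surface receptors, with OCS/LPS (red circles), Rag (blue diamonds), RIP-OVAhi (grey triangles) and naive arrays (green squares) side by side; the dotted line marks log2 5. The Rag diamond lies below both OCS/LPS circles for every gene shown except Nt5e, whose Rag value of 6.80 is the highest of its 7.

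Both groups had divided at least 2 times, yet the genes of the cell cycle were far higher after priming. Of 30 tested DNA replication genes 29 rose and 0 fell (also 0 at an unadjusted p under 0.05), with a median difference of 2.02. Over all genes 10.9% rose and 6.83% fell. Of 31 tested mitotic genes 30 rose and 0 fell (again 0 unadjusted), with a median of 3.26. In the replication list the rises numbered 20 and 16 without OCS/LPS replicate 1 or 2, 22 without either RIP-OVAhi array and 30 without either naive array. In the mitotic list they numbered 23, 21, 26 and 30. The median level of the mitotic genes was 10.22 and 10.56 in OCS/LPS cells, against 6.89 in Rag cells and 3.65 and 4.04 in naive cells. The Rag array lay between the naive and OCS/LPS ranges for 29 of the 31 mitotic genes and for 20 of the 30 replication genes, against 26% of all tested genes.

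Among replication genes, Tk1, a thymidine kinase made in S phase, stood at 10.14 and 10.23 in OCS/LPS cells, against 5.64 in Rag cells (4.54, SE 0.41, adjusted p = 0.00208). Mcm10, which helps load the replication fork, stood at 8.52 and 8.59 in OCS/LPS cells, against 4.80 in Rag cells (3.76, SE 0.21, adjusted p = 0.000471). Gins2, Uhrf1 and Lig1, which encode a helicase subunit, a reader of hemimethylated DNA and a DNA ligase, were higher by 2.64 to 3.43 log2 units, and these calls were stable like those of Tk1 and Mcm10. Pcna, the sliding clamp, was already 12.84 in Rag cells, against which OCS/LPS cells stood at 13.67 and 13.71 (0.85, SE 0.17, adjusted p = 0.0268), a call lost when any 1 of the OCS/LPS or RIP-OVAhi arrays was left out (up to 0.131). Cdc45, a helicase subunit, was higher by 4.16 log2 units (SE 0.22, adjusted p = 0.000396), but another of its probe sets gave -0.01.

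Among mitotic genes, Hmmr, a spindle protein, stood at 9.46 on both OCS/LPS arrays, against 4.63 in Rag cells (4.83, SE 0.37, adjusted p = 0.00123). Ttk, a kinase of the spindle checkpoint, stood at 8.60 and 8.92 in OCS/LPS cells, against 4.12 in Rag cells (4.64, SE 0.36, adjusted p = 0.00123). Nuf2, Cenpe and Bub1 of the kinetochore, the structure that binds chromosomes to the spindle, rose by 3.71 to 4.22 on the log2 scale. All 5 calls were stable. Aurka, a centrosome kinase, was higher by 4.44 log2 units (SE 0.68, adjusted p = 0.0113), but the call was lost without any 1 of the OCS/LPS or RIP-OVAhi arrays (up to 0.0854).

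**Figure D3:**
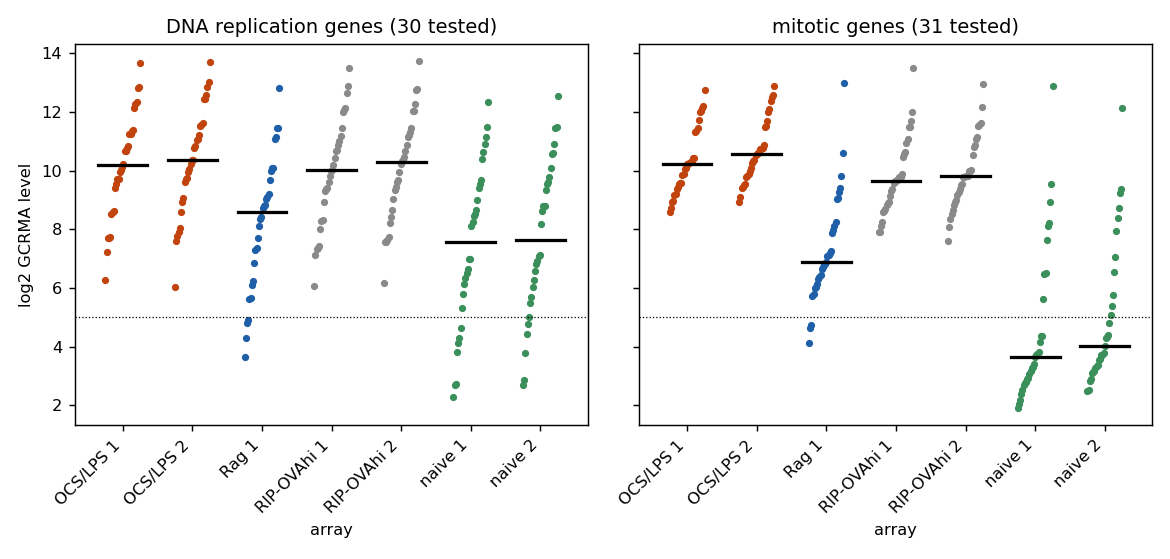
Level (y axis, log2 GCRMA) of each tested DNA replication gene (left, 30 genes) and mitotic gene (right, 31 genes) on each of the 7 arrays (x axis); black bars are medians and the dotted line marks log2 5. The mitotic medians are 10.22 and 10.56 on the OCS/LPS arrays and 6.89 on the Rag array, with both naive arrays lower at 3.65 and 4.04.

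Many mitotic promoters carry a CCAAT box, bound by the factor NF-Y, and a cell cycle homology element, through which they are repressed in resting cells. Both were searched as letters, CCAAT and TTTGAA on either strand, in the 250 bases before each RefSeq gene start (GRCm38.p6). Of 27 mitotic genes matched, 10 held both motifs (37.0%), compared with 5.05% of the 6893 tested genes matched and 5.55% of all promoters in the table. Of 24 replication genes matched, 3 held both (12.5%). A match of letters is a description and shows no binding. The stretches below show the last 150 bases before the start of 2 called mitotic genes that hold both motifs, chosen after their values were seen, with every copy of either motif in capitals. Cdk1, the kinase that drives mitosis, stood at 10.35 and 10.74 in OCS/LPS cells, against 7.25 in Rag cells (3.29, SE 0.54, adjusted p = 0.0141), and its call was lost without any 1 of the OCS/LPS or RIP-OVAhi arrays (up to 0.0952). Cdc20, an activator of the anaphase-promoting complex, stood at 12.12 and 12.50 in OCS/LPS cells, against 9.42 in Rag cells (2.89, SE 0.22, adjusted p = 0.00114, stable).
Cdk1, chr10:69352913-69353062, minus strand: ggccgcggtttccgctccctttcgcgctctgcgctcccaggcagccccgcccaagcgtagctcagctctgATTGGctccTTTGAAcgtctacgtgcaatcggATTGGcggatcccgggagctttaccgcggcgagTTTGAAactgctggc
Cdc20, chr4:118437344-118437493, minus strand: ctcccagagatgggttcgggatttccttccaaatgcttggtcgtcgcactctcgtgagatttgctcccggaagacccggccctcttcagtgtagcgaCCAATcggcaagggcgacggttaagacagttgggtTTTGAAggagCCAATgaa

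The genes that govern entry into the cycle went both ways, with 8 of 21 tested members higher and 2 lower, against 10.9% and 6.83% over all genes. The rises numbered 4 and 2 without OCS/LPS replicate 1 or 2, 3 without either RIP-OVAhi array and 12 without either naive array. Ccne2, the S phase cyclin E2, stood at 9.50 and 9.85 in OCS/LPS cells, against 7.62 in Rag cells (2.05, SE 0.19, adjusted p = 0.00225, stable). E2f7, a repressor that is itself a target of the E2F factors, stood at 6.54 and 6.64 in OCS/LPS cells, against 3.93 in Rag cells (2.66, SE 0.14, adjusted p = 0.000387, stable). Mki67, which encodes the proliferation antigen Ki-67, stood at 12.99 and 13.27 in OCS/LPS cells, against 10.70 in Rag cells and 6.71 and 7.44 in naive cells. Its call (2.43, SE 0.32, adjusted p = 0.00672) was lost without OCS/LPS replicate 2 (0.0599). Ccnd2, the cyclin D2 gene, was the larger of the falls. It stood at 10.76 and 10.49 in OCS/LPS cells, against 11.90 in Rag cells (-1.28, SE 0.18, adjusted p = 0.00889). The call was lost when OCS/LPS replicate 2 was left out (0.0584), and 1 of its 6 other probe sets gave 0.01.

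Of 15 tested cytotoxic and effector genes 6 rose and 1 fell, against 10.9% and 6.83% over all genes. The median difference was 0.41, and 12 further members were near background on every array. The rises numbered 2 and 3 without OCS/LPS replicate 1 or 2, 5 without either RIP-OVAhi array and 7 without either naive array. Serpinb6b, a serpin that shields cells from granzyme, stood at 11.96 and 11.50 in OCS/LPS cells, against 8.49 in Rag cells (3.24, SE 0.33, adjusted p = 0.00312, stable). Crtam, a receptor of activated cytotoxic cells, stood at 9.88 and 9.79 in OCS/LPS cells, against 8.71 in Rag cells (1.13, SE 0.14, adjusted p = 0.00547, stable). Ifng, the gene of interferon-gamma, stood at 7.81 and 7.43 in OCS/LPS cells, against 4.25 in Rag cells. The Rag value was near background and above both naive values (2.79 and 3.66), and the call (3.38, SE 0.49, adjusted p = 0.01) was lost without OCS/LPS replicate 1 or 2 (up to 0.0699).

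Gzmb and Gzma encode granzymes, proteases that cytotoxic cells inject into targets, and were high in both groups. Gzmb stood at 9.18 and 9.41 in OCS/LPS cells, against 8.10 in Rag cells and 4.81 and 6.20 in naive cells. Its difference of 1.20 (SE 0.53, adjusted p = 0.176) was not called. Gzma stood at 10.17 and 10.35 in OCS/LPS cells, against 9.27 in Rag cells and 7.70 and 8.07 in naive cells (0.99, SE 0.21, adjusted p = 0.0278). The call was lost without any 1 of the OCS/LPS or RIP-OVAhi arrays (up to 0.14). NK cells also express Gzma, and Klra8, an NK cell receptor gene, was 4.04 and 5.85 in OCS/LPS cells, against 6.42 in Rag cells. The Klra8 difference of -1.48 (SE 0.77, adjusted p = 0.24) was not called. Of 6 NK cell genes on the array, 3 were near background on all 7 arrays, and Klra8, Gzma and Eomes were tested. The part of NK cells was not tested. Prf1, the pore-forming perforin, was the member that fell, at 6.45 and 6.75 in OCS/LPS cells, against 7.77 in Rag cells and 8.41 and 7.90 in naive cells (-1.17, SE 0.27, adjusted p = 0.0358). That call was lost without any 1 of the OCS/LPS or RIP-OVAhi arrays (up to 0.154) and with the replicate block (adjusted p = 0.0692).

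Among effector and memory transcription factors 4 of 12 rose and 1 fell, against 10.9% and 6.83% over all genes. The rises were 3 without any 1 of the OCS/LPS or RIP-OVAhi arrays and 6 without either naive array. Tbx21, which encodes the effector factor T-bet, stood at 10.81 and 10.76 in OCS/LPS cells, against 9.13 in Rag cells and 7.19 and 7.02 in naive cells (1.66, SE 0.15, adjusted p = 0.00225, stable). Rag cells were thus between naive and primed cells. Id2, an inhibitor of E proteins that supports effector cells, stood at 11.24 and 11.41 in OCS/LPS cells, against 9.98 in Rag cells (1.35, SE 0.17, adjusted p = 0.00575, stable), and both groups were below the naive arrays (11.93 and 12.15). Eomes, a T-box factor of memory cells, was 10.30 and 10.09 in OCS/LPS cells, against 10.31 in Rag cells (-0.12, SE 0.18, adjusted p = 0.696). Gata3, a T cell factor, was higher by 0.95 log2 units (SE 0.18, adjusted p = 0.0223), lost without any 1 of the OCS/LPS or RIP-OVAhi arrays (up to 0.119). Bach2, a repressor that holds back effector genes, was lower, at 9.40 and 9.52 in OCS/LPS cells, against 10.62 in Rag cells (-1.16, SE 0.16, adjusted p = 0.00875), lost without OCS/LPS replicate 1 or 2 (up to 0.0596).

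Of 11 NK cell receptor genes that activated CD8 cells can express, 8 were near background on all arrays and 3 were tested. Of these, Klrk1 was tested only because the OCS/LPS arrays reached log2 5, so no share of the list is given. Klrk1, which encodes the activating receptor NKG2D, stood at 7.02 and 6.40 in OCS/LPS cells, against 2.51 in Rag cells (4.20, SE 0.27, adjusted p = 0.000583, stable). Klrc1, which encodes the inhibitory receptor chain NKG2A, stood at 9.79 and 9.71 in OCS/LPS cells, against 5.92 in Rag cells. Its call (3.83, SE 0.50, adjusted p = 0.00673) was lost without OCS/LPS replicate 1 or 2. For both genes the Rag array lay at or close to the naive values. Klrd1, which encodes CD94, the partner chain of NKG2A, was high in both groups, at 12.96 and 12.76 in OCS/LPS cells, against 13.11 in Rag cells (-0.25, SE 0.16, adjusted p = 0.325).

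In the list of S100 proteins, annexins and galectins 5 of 16 rose and 1 fell, against 10.9% and 6.83% over all genes. The rises numbered 2 and 4 without OCS/LPS replicate 1 or 2, 4 without either RIP-OVAhi array and 11 without either naive array. Lgals3, which encodes galectin-3, stood at 6.14 and 5.98 in OCS/LPS cells, against 2.90 in Rag cells (3.16, SE 0.15, adjusted p = 0.000268, stable). It was tested only because the OCS/LPS arrays reached log2 5, so its place among the rises was fixed in part by that filter. Anxa2, an annexin of the cell membrane, stood at 12.26 and 11.73 in OCS/LPS cells, against 9.42 in Rag cells (2.57, SE 0.28, adjusted p = 0.00383, stable). S100a4 and S100a6, markers of effector and memory cells, were high in both groups. S100a6 stood at 12.17 and 12.10 in OCS/LPS cells, against 10.93 in Rag cells and 6.23 and 6.89 in naive cells. Its difference of 1.20 (SE 0.27, adjusted p = 0.0346) was no longer called without any 1 of the OCS/LPS or RIP-OVAhi arrays (up to 0.146) and with the replicate block (adjusted p = 0.0655). S100a4 was higher by 1.15 log2 units (SE 0.17, adjusted p = 0.0104), lost without OCS/LPS replicate 1 (0.0598).

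The genes of resting and long-lived T cells lay on the other side. Of 21 tested naive and quiescence genes 10 fell and 0 rose (1 at an unadjusted p under 0.05), against 6.83% and 10.9% over all genes, with a median difference of -0.68. The falls numbered 3 without either OCS/LPS array, 7 without either RIP-OVAhi array and 11 without either naive array. Bcl2, which blocks apoptosis, stood at 9.14 and 9.51 in OCS/LPS cells, against 13.24 in Rag cells. The Rag value was the highest of all 7, above both naive values (12.26 and 11.88), and the primed cells were the lowest. The difference of -3.92 (SE 0.26, adjusted p = 0.00074) was stable, and all 4 of its other measured probe sets ran the same way (-4.42 to -2.90). Il7r, the receptor for interleukin-7, stood at 10.52 and 10.44 in OCS/LPS cells, against 13.01 in Rag cells, which is the naive level (12.94 and 12.78). Its difference was -2.54 (SE 0.20, adjusted p = 0.00138, stable).

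Igfbp4, which encodes a binding protein for insulin-like growth factors, stood at 8.34 and 7.72 in OCS/LPS cells, against 12.16 in Rag cells (-4.13, SE 0.32, adjusted p = 0.00126, stable). Txnip, a brake on glucose uptake, stood at 11.16 and 11.24 in OCS/LPS cells, against 12.65 in Rag cells (-1.46, SE 0.22, adjusted p = 0.0109), and Tob1, which holds T cells in quiescence, at 8.42 and 8.53, against 9.92 in Rag cells (-1.44, SE 0.23, adjusted p = 0.0123). Both calls were lost without OCS/LPS replicate 1 or 2 (up to 0.0735 and 0.0802). Ccr7, the lymph node homing receptor, differed little, at 11.11 and 11.08 in OCS/LPS cells, against 11.29 in Rag cells (-0.19, SE 0.17, adjusted p = 0.493). Cd44, which marks antigen-experienced and memory cells, was above naive values (7.67 and 8.23) in both groups, at 11.11 and 11.34 in OCS/LPS cells, against 9.89 in Rag cells. That rise (1.33, SE 0.25, adjusted p = 0.0223) was lost without any 1 of the OCS/LPS or RIP-OVAhi arrays (up to 0.123).

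Among receptors for cytokines 4 of 17 tested members fell and 1 rose, against 6.83% and 10.9% over all genes. Of the 17 differences 13 were negative, and their median was -0.52. The number of falls was 0 without either OCS/LPS array, 1 without either RIP-OVAhi array and 10 without either naive array. Il18r1, a chain of the interleukin-18 receptor, stood at 6.61 and 6.60 in OCS/LPS cells, against 9.94 in Rag cells (-3.34, SE 0.67, adjusted p = 0.0252), lost without OCS/LPS replicate 1 or 2 (up to 0.127). Its partner Il18rap stood at 8.24 and 8.51 in OCS/LPS cells, against 9.48 in Rag cells (-1.11, SE 0.20, adjusted p = 0.0191), where both groups exceeded the naive arrays (6.47 and 6.65). Il6ra, the interleukin-6 receptor, stood at 7.18 and 6.90 in OCS/LPS cells, against 9.06 in Rag cells (-2.02, SE 0.39, adjusted p = 0.0234). The calls of Il18rap and Il6ra were lost without any 1 of the OCS/LPS or RIP-OVAhi arrays (up to 0.097 and 0.129), as was that of Ifngr1 (-1.06, SE 0.27, adjusted p = 0.0491; 0.0682 with the replicate block). The member that rose was Il2rb, the beta chain of the receptors for interleukin-2 and interleukin-15, at 9.62 and 9.66 in OCS/LPS cells, against 7.61 in Rag cells and 6.64 and 7.23 in naive cells. Its call (2.02, SE 0.27, adjusted p = 0.00734) was lost without OCS/LPS replicate 1 or 2 (up to 0.0636). Il2ra, the alpha chain of the interleukin-2 receptor, was near background on all 7 arrays.

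Of 12 tested SOCS, Pim and STAT genes, which relay and restrain cytokine signals, 2 fell and 0 rose (0 also at an unadjusted p under 0.05). Over all genes 6.83% fell and 10.9% rose. The falls were 0 without either OCS/LPS array, 2 without either RIP-OVAhi array and 5 without either naive array. Socs3, an inhibitor of receptors that signal through Stat3, stood at 7.80 and 7.82 in OCS/LPS cells, against 11.25 in Rag cells and 10.42 and 10.15 in naive cells (-3.44, SE 0.51, adjusted p = 0.0105). Pim1, a survival kinase induced by cytokines, stood at 8.48 and 8.56 in OCS/LPS cells, against 10.05 in Rag cells. The Rag array was the highest of all 7 for both genes. Pim1 differed by -1.53 (SE 0.24, adjusted p = 0.0124), and these 2 falls were lost without OCS/LPS replicate 1 or 2 (up to 0.079 for Socs3 and 0.081 for Pim1).

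Genes of cell death showed no common direction, with 1 of 9 tested BCL2 family members other than Bcl2 higher and 1 lower, and 3 of 17 death receptor and caspase genes higher and 1 lower. These counts are close to the 10.9% higher and 6.83% lower over all tested genes. Bbc3, which encodes the killer protein Puma, stood at 4.94 and 4.69 in OCS/LPS cells, against 6.37 in Rag cells (-1.55, SE 0.19, adjusted p = 0.00504, stable). Bcl2l11, which encodes Bim, was 9.33 and 9.43 in OCS/LPS cells, against 9.58 in Rag cells (-0.20, SE 0.22, adjusted p = 0.584), and its 3 other measured probe sets pointed the other way (0.08 to 0.68). The 3 that rose were Apaf1, of the apoptosome (1.03, SE 0.18, adjusted p = 0.017, lost without any 1 of the OCS/LPS or RIP-OVAhi arrays, up to 0.1), and the inflammatory caspases Casp1 and Casp4. Casp1 stood at 7.61 on both OCS/LPS arrays, against 5.07 in Rag cells (2.54, SE 0.20, adjusted p = 0.00123, stable), and Casp4 at 5.97 and 5.82, against 2.62 in Rag cells (3.27, SE 0.33, adjusted p = 0.00287, stable).

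Interferon-stimulated genes, which encode antiviral proteins induced by type I interferon, were lower after priming as a list. Of 28 tested members 14 fell and 0 rose (0 also at an unadjusted p under 0.05), against 6.83% and 10.9% over all genes. The median difference was -0.83, and 27 of 28 differences were negative. The falls numbered 6 and 5 without OCS/LPS replicate 1 or 2, 9 without either RIP-OVAhi array and 18 without either naive array. Oasl2, of the oligoadenylate synthetase family, stood at 2.86 and 2.85 in OCS/LPS cells, against 7.46 in Rag cells, with naive cells at 7.27 and 7.25 (-4.60, SE 0.19, adjusted p = 0.000187, stable). Rag cells thus held the naive level and primed cells were near background. Ifit3, an RNA-binding antiviral protein gene, stood at 7.17 and 7.49 in OCS/LPS cells, against 9.67 in Rag cells (-2.34, SE 0.26, adjusted p = 0.00412, stable). Gbp2, a guanylate-binding GTPase gene, stood at 9.95 and 9.79 in OCS/LPS cells, against 11.50 in Rag cells (-1.63, SE 0.19, adjusted p = 0.00486, stable). Rsad2, which encodes viperin, stood at 5.53 and 5.12 in OCS/LPS cells, against 8.77 in Rag cells (-3.45, SE 0.52, adjusted p = 0.0105), lost without OCS/LPS replicate 1 or 2 (up to 0.0815). Ifit1bl1, a relative of Ifit1, was among the largest falls of genes above log2 5 on all 7 arrays, at 8.30 and 8.31 in OCS/LPS cells, against 11.25 in Rag cells (-2.95, SE 0.17, adjusted p = 0.000471, stable). Naive values lay at or near the Rag value for Ifit3 (9.99 and 9.45), Gbp2 (11.51 and 11.81) and Ifit1bl1 (10.83 and 10.59).

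Type I interferon acts on these genes through the interferon-stimulated response element, searched here as GAAA, any 2 bases and GAAA, on either strand, in the same 250 bases. It was found in 11 of 21 matched list members (52.4%), compared with 3.39% of tested genes matched and 2.98% of all promoters in the table. The last 150 bases before the start of Ifit3 and Gbp2, both stable falls that hold the element, are shown with the matching letters in capitals; on this strand the motif reads in its reverse complement.
Ifit3, chr19:34583379-34583528, plus strand: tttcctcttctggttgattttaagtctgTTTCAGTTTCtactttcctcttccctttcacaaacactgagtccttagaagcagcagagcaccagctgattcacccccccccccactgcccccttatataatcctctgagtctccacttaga
Gbp2, chr3:142620513-142620662, plus strand: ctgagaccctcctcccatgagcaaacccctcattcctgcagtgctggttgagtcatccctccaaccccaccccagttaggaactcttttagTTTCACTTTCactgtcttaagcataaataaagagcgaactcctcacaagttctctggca

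Sterol synthesis, which supplies cholesterol for new membrane, ran the other way. Of 23 tested sterol and lipid genes 14 rose and 1 fell, against 10.9% and 6.83% over all genes, with a median difference of 0.98. The rises numbered 8 and 6 without OCS/LPS replicate 1 or 2, 8 without either RIP-OVAhi array and 16 without either naive array. Cyp51, the lanosterol demethylase, was 8.25 on both OCS/LPS arrays, against 6.29 in Rag cells (1.96, SE 0.14, adjusted p = 0.001). Idi1, an isomerase of the isoprenoid steps, stood at 10.65 and 10.67 in OCS/LPS cells, against 8.69 in Rag cells (1.97, SE 0.23, adjusted p = 0.00448). Tm7sf2, a sterol reductase, stood at 6.44 and 6.66 in OCS/LPS cells, against 4.39 in Rag cells (2.16, SE 0.22, adjusted p = 0.00286). These 3 calls were stable, and for Cyp51 and Idi1 the Rag value lay within 0.5 log2 units of both naive arrays. Sqle, the squalene epoxidase, rose most, at 7.37 and 7.57 in OCS/LPS cells, against 4.62 in Rag cells (2.85, SE 0.35, adjusted p = 0.00567), lost without OCS/LPS replicate 2 (0.0556). The member that fell was Abca1, which exports cholesterol from the cell. It stood at 3.49 and 3.43 in OCS/LPS cells, against 9.32 in Rag cells and 7.95 and 8.23 in naive cells (-5.85, SE 0.22, adjusted p = 0.00017, stable). Macrophages also express Abca1. Csf1r was 8.51 on the Rag array and 2.56 and 2.52 on the naive arrays, and its part in this difference was not tested.

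SREBP factors switch these genes on through sterol regulatory elements, helped by NF-Y at CCAAT boxes. CCAAT was found in 17 of 18 matched list members (94.4%), compared with 41.2% of tested genes and 33.8% of all promoters. The element TCACNCCAC was found in 1 of 18 (5.56%), compared with 1.13% of tested genes and 1.05% of all promoters. The gene that held it, shown for that reason with the element in capitals, was Hmgcs1, the synthase at the head of the pathway. It stood at 11.60 and 11.49 in OCS/LPS cells, against 10.74 in Rag cells (0.81, SE 0.20, adjusted p = 0.047), a call lost when any 1 of the OCS/LPS or RIP-OVAhi arrays was left out (up to 0.18) and with the replicate block (adjusted p = 0.0924).
Hmgcs1, chr13:119690201-119690350, plus strand: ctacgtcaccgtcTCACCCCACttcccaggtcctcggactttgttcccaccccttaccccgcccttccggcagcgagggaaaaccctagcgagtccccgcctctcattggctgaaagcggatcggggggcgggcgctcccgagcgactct

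**Figure D4:**
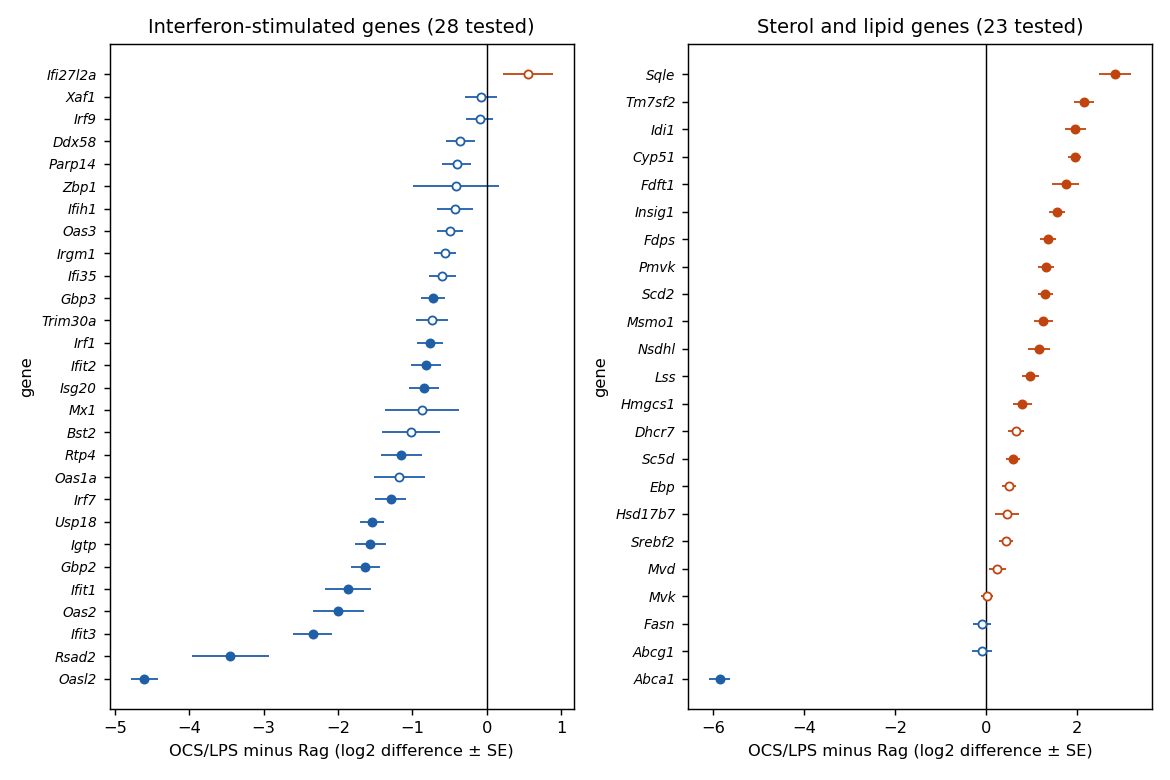
Difference of OCS/LPS minus Rag (x axis, log2, with bars of 1 SE) for each tested interferon-stimulated gene (left, 28 genes) and sterol or lipid gene (right, 23 genes); filled points are called, open points are not. All but 1 of the interferon-stimulated points lie below 0, down to Oasl2 at -4.60, and 14 filled sterol points lie above 0, with Abca1 alone far below at -5.85.

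Fewer genes of other metabolic programmes were called. Glycolysis genes rose in 5 of 17 cases, against 10.9% over all genes. Those that rose included Tpi1 (1.34, SE 0.30, adjusted p = 0.0328) and Gapdh (0.79, SE 0.17, adjusted p = 0.0328, and 0.0731 with the replicate block). Both calls were lost without any 1 of the OCS/LPS or RIP-OVAhi arrays. The rises numbered 1 and 0 without OCS/LPS replicate 1 or 2, 0 without either RIP-OVAhi array and 8 without either naive array. None of 28 oxidative phosphorylation subunits was called by limma, against 17.8% of all tested genes. At an unadjusted p under 0.05, 7 were higher, and 11 were called without either naive array. Their median difference was 0.37. Of 25 Myc and ribosome biogenesis genes 3 fell and 0 rose (0 at an unadjusted p under 0.05), against 6.83% and 10.9% over all genes. The falls were 0 without any 1 of the OCS/LPS or RIP-OVAhi arrays and 6 without either naive array. Myc itself was 8.95 and 9.04 in OCS/LPS cells, against 9.49 in Rag cells (-0.50, SE 0.22, adjusted p = 0.183). In the amino acid and aminoacyl-tRNA list 5 of 25 rose and 1 fell, against 10.9% and 6.83% over all genes. The rises were 3 without OCS/LPS replicate 1, 1 without OCS/LPS replicate 2 or either RIP-OVAhi array and 7 without either naive array. Psat1 of serine synthesis rose most, at 11.95 and 11.89 in OCS/LPS cells, against 10.21 in Rag cells (1.71, SE 0.17, adjusted p = 0.00309, stable). Of 20 receptor complex and proximal signalling genes 2 rose, a share near the 10.9% over all tested genes (0 without any 1 of the OCS/LPS or RIP-OVAhi arrays), Fyn, a Src family kinase (0.63, SE 0.15, adjusted p = 0.0358) and Ubash3a, a phosphatase that restrains receptor signals (0.65, SE 0.15, adjusted p = 0.038). With the replicate block these had adjusted p = 0.0833 and 0.089, and another probe set of Ubash3a gave -0.66.

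Homing genes were mixed. Of 9 tested chemokine receptors 2 rose and 1 fell, against 10.9% and 6.83% over all genes. Cxcr5 and Cxcr3 were higher and P2ry10, a receptor for lysophospholipids, was lower (-0.69, SE 0.16, adjusted p = 0.0371, and 0.0731 with the replicate block). The P2ry10 call was also lost without any 1 of the OCS/LPS or RIP-OVAhi arrays. Cxcr3, which guides effector cells to inflamed tissue, was above the naive values (8.27 and 8.32) in both groups, at 12.41 and 12.08 in OCS/LPS cells, against 11.13 in Rag cells. Its call (1.11, SE 0.18, adjusted p = 0.0135) was lost without OCS/LPS replicate 1 or either RIP-OVAhi array (up to 0.0578). Ccr9, the gut homing receptor, was 2.98 and 4.86 in OCS/LPS cells, against 6.06 in Rag cells and 10.51 and 10.62 in naive cells. Its difference of -2.14 (SE 0.69, adjusted p = 0.0875) was not called, and the 2 OCS/LPS arrays were themselves far apart. The 3 other measured probe sets of Ccr9 gave only -0.53 to 0.07, and 2 of them ran the other way. Among integrins, Itgae, the CD103 chain that binds E-cadherin, fell, at 7.46 and 8.12 in OCS/LPS cells, against 10.26 in Rag cells (-2.47, SE 0.35, adjusted p = 0.00914, stable).

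The largest falls mixed genes of T cells with genes seen in the Rag array alone. Csf1r (-6.01, SE 0.14, adjusted p = 8.43e-05), the iron exporter gene Slc40a1 (-5.24, SE 0.19) and Mpeg1 (-4.69, SE 0.27) belong to the macrophage list. In each the OCS/LPS, RIP-OVAhi and naive arrays were all near background. These 3, Cd163 and Adgre1 were tested only because the Rag array reached log2 5, so the direction of their differences was fixed by that filter. They are among the 6 falls of 10 tested members of the list, against 6.83% over all genes. Where 2 arrays had to reach log2 5, 1 fall was left. Drc1, named for a regulator of dynein in cilia, shared that pattern, at 2.32 on both OCS/LPS arrays, against 7.95 in Rag cells, with all other arrays between 2.31 and 2.42 (-5.63, SE 0.14, adjusted p = 8.43e-05). The annotated transcript 5830411N06Rik stood at 4.15 and 4.14 in OCS/LPS cells, against 10.66 in Rag cells and 5.57 and 6.59 in naive cells (-6.52, SE 0.39, adjusted p = 0.000501), the largest fall. Other large falls had naive levels like those of Rag cells. App, the amyloid precursor protein gene, stood at 2.90 and 2.58 in OCS/LPS cells, against 6.65 in Rag cells and 7.03 and 6.72 in naive cells (-3.91, SE 0.23, adjusted p = 0.000493). Cxxc5, which encodes a zinc finger protein, stood at 3.35 and 3.33 in OCS/LPS cells, against 7.41 in Rag cells and 8.53 and 8.63 in naive cells (-4.07, SE 0.14, adjusted p = 0.000154). All the calls of this paragraph were stable, but the Rag array itself was never left out. For Csf1r, Slc40a1, Mpeg1 and Drc1 all other arrays were near background, so stability adds little to that single reading.

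Coro2a and Apol11b were above log2 5 in OCS/LPS cells and highest in Rag cells, so that both sides were measured. Coro2a, of the coronin family of actin regulators, stood at 5.82 and 5.86 in OCS/LPS cells, against 9.16 in Rag cells, with naive cells at 6.42 on both arrays (-3.31, SE 0.14, adjusted p = 0.000187, stable). Apol11b, an apolipoprotein L gene, stood at 5.39 and 5.33 in OCS/LPS cells, against 9.34 in Rag cells and 5.29 on both naive arrays (-3.98, SE 0.15, adjusted p = 0.000158, stable). Nr1d2, a nuclear receptor of the circadian clock, stood at 6.70 and 7.31 in OCS/LPS cells, against 10.00 in Rag cells and 9.99 and 9.82 in naive cells (-2.99, SE 0.28, adjusted p = 0.00225, stable). The transcripts that rose with Jchain were Igkv8-30 (5.23, SE 0.60, adjusted p = 0.00448, stable), a light chain segment, and Ighm, the IgM heavy chain (0.71, SE 0.14, adjusted p = 0.0255). The Ighm call was lost without any 1 of the OCS/LPS or RIP-OVAhi arrays and with the replicate block (adjusted p = 0.0513). Itgax, the CD11c chain of dendritic cells that some activated CD8 T cells also make, stood at 5.64 and 5.52 in OCS/LPS cells, against 2.26 in Rag cells (3.32, SE 0.14, adjusted p = 0.000187, stable). It was the single tested member of 8 dendritic cell genes on the array, tested only because the OCS/LPS arrays reached log2 5, the other 7 being near background on all 7 arrays. Cd22, an inhibitory receptor of B cells, stood at 8.21 and 8.55 in OCS/LPS cells, against 4.28 in Rag cells (4.10, SE 0.30, adjusted p = 0.00104, stable), and it was 6.53 and 7.03 in RIP-OVAhi cells, in which Jchain was near background. In naive cells, where Jchain was high, Cd22 was near background (4.04 and 3.59).

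**Figure D5:**
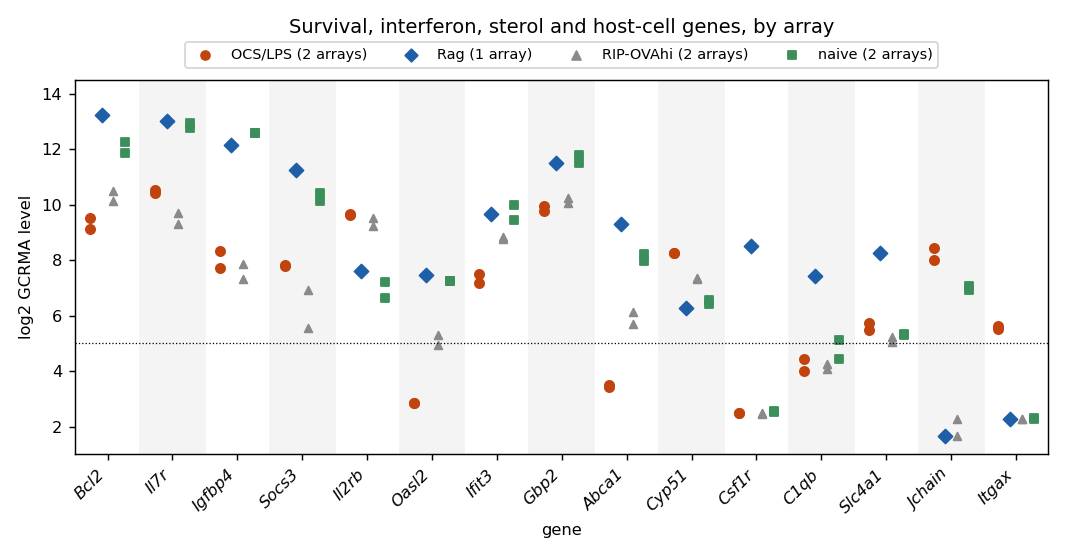
Level on each array (y axis, log2 GCRMA) of 15 genes of survival, cytokine feedback, interferon response, sterol handling and host cells, with OCS/LPS (red circles), Rag (blue diamonds), RIP-OVAhi (grey triangles) and naive arrays (green squares) side by side; the dotted line marks log2 5. The Rag diamond is the highest of all arrays for Bcl2 (13.24), and Csf1r is above log2 5 on the Rag array alone (8.51).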

How the data were processed

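The authors deposited log2 expression values of 45101 probe sets on 7 Affymetrix mouse arrays. Per the submitters' processing notes these come from GCRMA, whose version was not stated. It forces all arrays to nearly 1 distribution, which hides any shift common to most genes. Array medians were 2.97 to 3.08, and the number of arrays limits the precision. Per the labels' protocols, 100 ng of RNA was amplified in 2 cycles. The platform annotation gave 34958 probe sets 1 gene symbol, and 932 with several and 9211 with none were left out. Of the 34958, 34754 matched RefSeq genes of GRCm38.p6 by Entrez identifier. Of several probe sets of a gene, the one with the highest mean over all arrays was used.

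Limma 3.58.1 (R 4.3.3; lmFit and eBayes) was fitted to all 7 arrays with a mean per group, giving 3 residual degrees of freedom, a prior of 2.84 and a prior SD of 0.157. The contrast was OCS/LPS minus Rag, two-sided, with Benjamini-Hochberg adjustment over 8371 genes; SE is the moderated standard error, and OCS/LPS has n = 2 and Rag n = 1. Whether pools of 1 group were separate experiments is not stated, so the p-values reflect only how these arrays vary, which may be technical. Differences between arrays 1 and 2 correlated between groups at 0.316, 0.128 and 0.334, and at -0.0117, -0.0542 and 0.184 over autosomal genes; blocked values are given where they change a call. In 20 simulated draws 200 of the 8371 genes were changed, and every array, Rag included, was given the fitted spread of each gene. There the fit recovered 1.1%, 52%, 97.4% and 99.9% of changes of 0.5, 1, 2 and 4 log2 units, with 6.7 false calls on average. A shift particular to the single Rag array could not appear in these draws, so they give no error rate for the calls above.

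The named genes were the 12 largest rises and falls, the 12 of each among genes above log2 5 on all arrays, up to 6 members of each list, a fixed set of genes and host-cell genes above log2 5; Cd69, Pcna, Cd8b1, Cd3e, Cdk1, Cdc20 and Hmgcs1 were added after their values were seen. Members and lists were chosen with earlier results of these data known. Promoters are RefSeq sequences of GRCm38.p6. Some listed genes were not analysed here.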

Additional observations from a re-analysis of the deposited data

How the results depend on the processing

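Of the 155 named genes called, 130 kept the call with the replicate block, 112 with no filter on low levels, 152 with arrays centred on their median, 136 with the mean of all probe sets, 148 with a filter of log2 5 on 2 arrays (7 not in that fit), 91 and 88 without OCS/LPS replicate 1 or 2, 107 without either RIP-OVAhi array and 154 without either naive array. The replicate block gave 1031 calls, 654 higher and 377 lower. With no filter 1028 were called, 595 of them higher. On the OCS/LPS and Rag arrays alone 0 were called, 0 higher and 0 lower. Leaving out 1 array gave 413 to 2815 calls, 278 to 1649 higher and 125 to 1166 lower. Without X- and Y-linked genes, an alternative chosen after seeing the data, 1453 were called. The mean of all probe sets reversed Ubash3a (-0.0048) and Atp5c1 (-0.6606, adjusted p = 0.0354), whose probe sets disagree. The list medians of integrins, BCL2 family, death receptors, GIMAP, T cell receptor complex and neutrophil genes changed sign under some alternatives and give no direction. The cause of these shifts was not tested. The single Rag array limits every value given.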

Other observations

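Chaperone genes gave values that belong to no comparison above. Of 20 tested folding and stress genes of the endoplasmic reticulum 2 rose and 1 fell, shares close to the 10.9% and 6.83% over all tested genes. Sdf2l1, a chaperone of that compartment, stood at 7.16 and 7.62 in OCS/LPS cells, against 5.38 in Rag cells (2.01, SE 0.25, adjusted p = 0.00564, stable). Of 15 tested heat shock genes 2 rose and 0 fell (0 also at an unadjusted p under 0.05 in limma), where 10.9% of all tested genes rose. Hspa4l, a relative of Hsp110, stood at 6.09 and 6.46 in OCS/LPS cells, against 3.98 in Rag cells (2.30, SE 0.23, adjusted p = 0.00292). Hspa1a, the inducible Hsp70, was 7.18 and 3.22 in OCS/LPS cells, against 2.36 in Rag cells, and its 2 OCS/LPS arrays lay far apart (2.84, SE 1.56, adjusted p = 0.264).

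Among the largest falls of genes above log2 5 on all arrays, Kif1b, a motor of axonal transport, stood at 6.56 and 7.16 in OCS/LPS cells, against 10.24 in Rag cells (-3.38, SE 0.36, adjusted p = 0.0035). Slc49a4, a membrane transporter, stood at 5.35 and 6.03 in OCS/LPS cells, against 8.77 in Rag cells (-3.08, SE 0.28, adjusted p = 0.00215). Mturn stood at 6.41 and 6.50 in OCS/LPS cells, against 9.10 in Rag cells (-2.65, SE 0.17, adjusted p = 0.000557). Naive cells were near the Rag level for Slc49a4 (8.37 and 8.25) and Mturn (9.27 and 9.05), and between the groups for Kif1b (9.21 and 8.51).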
